A study of Mus musculus with 12 samples.

Results

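A set of 10 genes of hepatic fatty acid synthesis was examined in liver transcriptomes of ARE-Del and wild-type mice. They were taken by symbol from the deposited expression table, in which all 10 were found among 19852 genes: Fasn, Acaca, Acacb, Acly, Scd1, Elovl6, Srebf1, Mod1 (the older symbol of Me1), Lpin1 and Thrsp. All 10 passed a filter on low values that 10568 genes passed. ARE-Del mice, written ARE-Del-/- in the extraction protocol, lack an AU-rich element of the Ifng transcript that normally destabilises it, and so make interferon gamma chronically. The livers came from 4 groups of 3 libraries each: female ARE-Del, female wild type (WT), male ARE-Del and male WT. All were C57BL/6 mice aged 20 weeks, and the WT mice were littermate controls. Levels are RPKM, in which reads are divided by transcript length and by the mapped reads of the library.

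De novo lipogenesis turns surplus carbohydrate into fatty acids. ATP citrate lyase releases acetyl-CoA in the cytosol, acetyl-CoA carboxylase makes malonyl-CoA from it, and fatty acid synthase builds palmitate with NADPH that malic enzyme and the pentose phosphate pathway supply. In liver the insulin-activated factor SREBP-1c, the carbohydrate-responsive factor ChREBP and thyroid hormone are known to raise these transcripts together.

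The promoter windows below are shown for the member that fell in both sexes (Mod1), the member with the largest rise in males (Lpin1) and the synthase itself (Fasn). Each holds the 250 bases before and the 50 after the RefSeq start in GRCm38.p6, read 5′ to 3′ on the minus strand. They lie at chr9:86695865-86696164 for Mod1 (the first of its pair of annotated starts), chr12:16610917-16611216 for Lpin1 and chr11:120824498-120824797 for Fasn. Capitals mark matches, on either strand, to the NF-Y box CCAAT, the Sp1 box GGGCGG or the nuclear receptor hexamer AGGTCA.
Mod1: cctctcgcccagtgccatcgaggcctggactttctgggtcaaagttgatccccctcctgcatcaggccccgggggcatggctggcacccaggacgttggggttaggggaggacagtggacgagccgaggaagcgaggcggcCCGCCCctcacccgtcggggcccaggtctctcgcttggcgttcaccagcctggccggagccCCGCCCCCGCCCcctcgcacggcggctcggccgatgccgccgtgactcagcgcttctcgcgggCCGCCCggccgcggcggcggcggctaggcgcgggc
Lpin1: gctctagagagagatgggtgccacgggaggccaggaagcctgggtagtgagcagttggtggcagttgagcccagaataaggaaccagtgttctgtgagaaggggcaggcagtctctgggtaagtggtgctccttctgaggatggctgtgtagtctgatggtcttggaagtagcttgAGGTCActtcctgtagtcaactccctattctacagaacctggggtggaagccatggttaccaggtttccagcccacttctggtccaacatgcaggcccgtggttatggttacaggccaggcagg
Fasn: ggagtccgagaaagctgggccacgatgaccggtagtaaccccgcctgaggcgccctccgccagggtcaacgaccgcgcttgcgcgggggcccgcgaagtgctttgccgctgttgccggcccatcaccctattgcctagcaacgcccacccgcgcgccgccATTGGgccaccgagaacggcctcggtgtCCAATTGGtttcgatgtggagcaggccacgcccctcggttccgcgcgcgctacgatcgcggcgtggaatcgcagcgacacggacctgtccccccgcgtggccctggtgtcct
The windows shown carried different motifs. The Mod1 window held 4 Sp1 boxes, of which 2 adjoin, and the Lpin1 window 1 nuclear receptor hexamer. The Fasn window held 3 NF-Y boxes, of which 2 overlap. The contrast depends on the start chosen: the other Mod1 window, not shown, held no Sp1 box and 1 NF-Y box. RefSeq promoter windows matched 9 of the 10 genes, and Scd1 had no entry. No window of these 9 genes held the E-box CACGTG or the sterol regulatory element core TCACNCCAC, which occurred in 7.15% and 1.24% of 32851 promoter windows of the same length. Only these exact strings were counted, with N as any base. Variant sites were not searched, so the windows are not shown to lack such elements. CCAAT occurred in 37.4% of all windows, GGGCGG in 35.7% and AGGTCA in 16.3%. A match in letters is a description of the window and not a bound site.

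The libraries had summed RPKM of 173476 to 208647. Ifng itself was listed at 0.090 to 0.238 RPKM in female ARE-Del livers and 0.010 to 0.021 RPKM in female WT livers, and at 0.074 to 0.123 RPKM in male ARE-Del livers and 0 to 0.038 RPKM in male WT livers. One library stood apart from its label. Female ARE-Del 2 had 0.046 RPKM of Xist, the RNA of the inactive X, against 45.6 and 40.6 RPKM in the other female ARE-Del libraries and 33.0 to 38.1 RPKM in female WT, while the Y-linked Ddx3y was 0 in all female libraries. Named calls that were lost without this library are given as such. Leukocyte markers rose in ARE-Del livers (7 of 7 tested, averaged over the sexes, where 42.5% of all tested genes passed). In females alone 6 of 7 rose, where 31.3% of all tested genes passed, and in males 7 of 7, where 21.5% did. Their summed level was 163 to 182 RPKM in female ARE-Del and 22.7 to 37.7 in female WT, and 100 to 125 in male ARE-Del and 15.3 to 29.0 in male WT. Mpeg1 was the largest part of each leukocyte sum, for example 96.0 RPKM in female ARE-Del 1 and 15.1 in female WT 1. Summed hepatocyte markers were 39633 to 41530 RPKM in female ARE-Del and 32474 to 34748 in female WT. They were 23556 to 31880 in male ARE-Del and 24320 to 25115 in male WT. Most of each sum was the albumin gene Alb, for example 32826 RPKM in female ARE-Del 1 and 28657 in female WT 1. Alb rose by 0.28 averaged (limma, adjusted p = 0.0295), but passed with neither median-of-ratios scaling nor quantile normalization. Of 8 hepatocyte markers 3 rose and 1 fell, averaged over the sexes (1 and 3 with median-of-ratios scaling, 2 and 3 with quantile normalization), a number called that is near the share of all genes as deposited. The part of these cell markers in the changes below was not tested, and in bulk liver fewer cells of a type and less RNA per cell cannot be told apart.

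Across both sexes the fatty acid synthesis genes did not move as a block in ARE-Del livers. Mod1, the cytosolic malic enzyme that makes NADPH, fell in both sexes. Lpin1, a phosphatidate phosphatase and coactivator, and Acacb, the acetyl-CoA carboxylase of the mitochondrial surface, rose in males. The male call of Acacb was sensitive and was lost under both scalings described below. Fasn, Acaca, Acly, Scd1, Elovl6, Srebf1 and Thrsp did not pass the test in either sex. As deposited, Elovl6 was called only in the average over the sexes, as lower. In limma's test on log2(RPKM + 1) with Benjamini-Hochberg adjustment over 10568 genes and a threshold of 0.05, 1 of 10 passed in females (lower), where 31.3% of all tested genes passed. In males 3 of 10 passed (2 higher, 1 lower) beside 21.5% of all genes, and averaged over the sexes 4 of 10 (2 higher, 2 lower) beside 42.5%. The count was below the share of all genes in females and near it averaged over the sexes and in males, where 2 of 10 passed under both scalings described next, beside 20.7% and 19.6% of all genes. The members' median change was 0.03 in females, 0.20 in males and 0.11 averaged, against 0.09, 0.10 and 0.09 for all tested genes. That general upward shift depends on scaling: 82.3% of the 3306 calls in females were higher as deposited, 52.3% of 3665 after median-of-ratios scaling and 39.3% of 4113 after quantile normalization. In males 90.5% of 2272 calls were higher as deposited, 55.7% of 2184 and 44.5% of 2076 under the same scalings, and averaged over the sexes the shares were 84.5% of 4489, 49.3% of 4507 and 35.3% of 5039. Median-of-ratios scaling moved the median gene by -0.10 in females and -0.11 in males, and quantile normalization by -0.16 and -0.14.

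**Figure D1:**
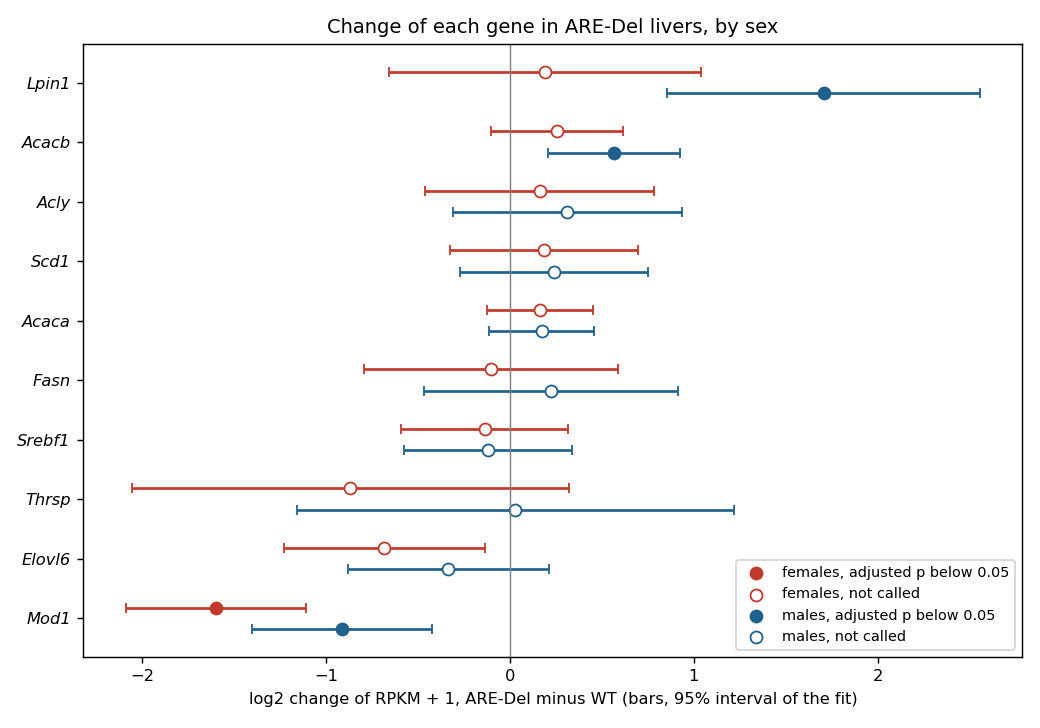
Change of each of the 10 genes on the log2(RPKM + 1) scale, ARE-Del minus WT, in females and males (points, fitted change, bars, 95% interval). Mod1 lies left of 0 in both sexes and Lpin1 and Acacb right of 0 in males, while the intervals of Fasn, Acaca, Acly, Scd1, Srebf1 and Thrsp cross 0 in both sexes.

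Mod1 encodes malic enzyme 1, which oxidises malate to pyruvate and reduces NADP to NADPH in the cytosol, and it is a classical target of thyroid hormone in rat liver. It measured 17.0, 8.02 and 11.5 RPKM in female ARE-Del livers, against 42.1, 36.6 and 33.9 RPKM in female WT livers. In males it measured 19.4, 25.3 and 16.5 RPKM in ARE-Del livers, against 39.9, 31.8 and 45.4 RPKM in WT livers. Every ARE-Del library lay below every WT library, within and across the sexes. The group means were 12.2 ± 4.55 RPKM in female ARE-Del and 37.5 ± 4.18 in female WT, a ratio of 0.325, and 20.4 ± 4.48 in male ARE-Del and 39.1 ± 6.83 in male WT, a ratio of 0.521 (SD, n = 3 each). The log2 change was -1.60 ± 0.22 (SE) in females (limma, adjusted p = 1.53e-04) and -0.91 ± 0.22 in males (adjusted p = 0.0132), and 1.5% of all tested genes had a larger absolute change in females. Averaged over the sexes it was -1.26 ± 0.16 (limma, adjusted p = 4.85e-05). Relative to the median gene the changes were -1.69 in females and -1.01 in males. Without female ARE-Del 2, the library lacking Xist, the female change was -1.35 (limma, adjusted p = 4.66e-04). The male call did not hold without male ARE-Del 3 (-0.78, limma, adjusted p = 0.0536) or without male WT 3 (-0.80, adjusted p = 0.0539).

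**Figure D2:**
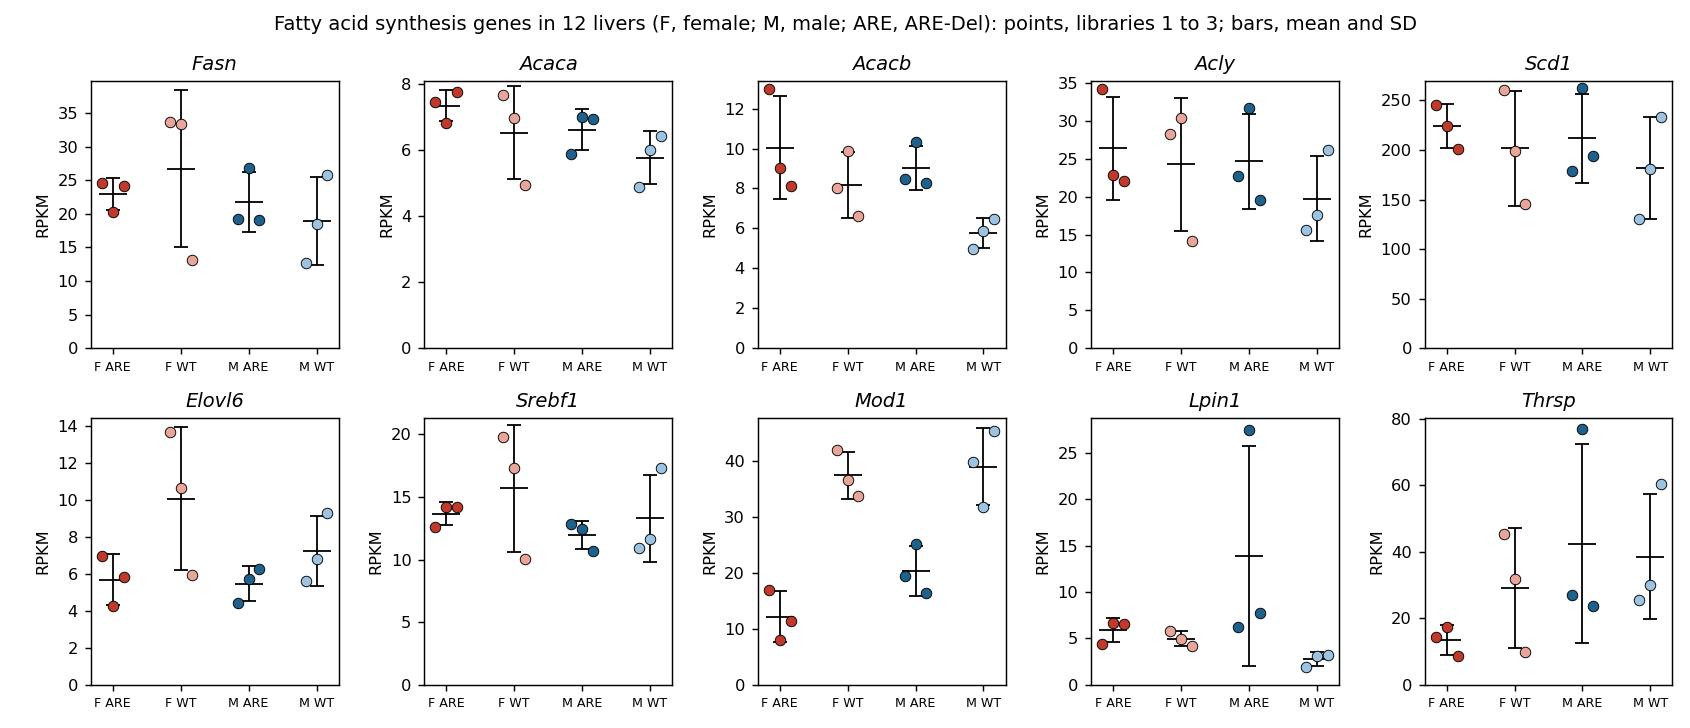
RPKM of the 10 genes in each of 12 libraries, by group (points, libraries 1 to 3 from left to right, bars, mean and SD). Mod1 is lower in all ARE-Del libraries, at 8.02 to 25.3 RPKM against 31.8 to 45.4 RPKM in WT, and Lpin1 peaks at 27.5 RPKM in male ARE-Del 2.

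Lpin1 encodes lipin 1, which dephosphorylates phosphatidate to diacylglycerol for triglyceride synthesis and also acts in the nucleus as a coactivator of fatty acid oxidation genes. It measured 6.27, 27.5 and 7.74 RPKM in male ARE-Del livers, against 1.95, 3.16 and 3.26 RPKM in male WT livers. The groups did not overlap, and male ARE-Del 2 was far above the other libraries. In females it measured 4.40, 6.70 and 6.55 RPKM in ARE-Del livers, against 5.83, 4.96 and 4.18 RPKM in WT livers, and these groups overlapped. The log2 change was 1.71 ± 0.39 in males (limma, adjusted p = 0.00886), with 0.653% of tested genes changing more, and 0.19 ± 0.39 in females (adjusted p = 0.745). Without male ARE-Del 2 the male change was 1.09 (limma, adjusted p = 0.00246), so that library raised the size of the change but not the call. Averaged over the sexes the change was 0.95 ± 0.28 (limma, adjusted p = 0.0155), and 0.64 without male ARE-Del 2 (adjusted p = 0.00243).

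The carboxylases have different roles. Acacb makes the malonyl-CoA that holds back carnitine palmitoyltransferase and thereby fatty acid oxidation, whereas Acaca makes the cytosolic pool that feeds fatty acid synthase. Acacb measured 8.48, 10.3 and 8.28 RPKM in male ARE-Del livers, against 4.97, 5.87 and 6.49 RPKM in male WT livers. These groups did not overlap, with means of 9.03 ± 1.12 and 5.77 ± 0.765 RPKM (SD, n = 3 each), a ratio of 1.56. In females Acacb measured 12.98, 9.004 and 8.15 RPKM in ARE-Del livers, against 8.02, 9.89 and 6.62 RPKM in WT livers, and the groups overlapped. The log2 change of Acacb was 0.57 ± 0.17 in males (limma, adjusted p = 0.0293), 0.26 ± 0.17 in females (adjusted p = 0.262) and 0.41 ± 0.12 averaged (adjusted p = 0.0136). The male call was sensitive: it was lost under median-of-ratios scaling (0.42, limma, adjusted p = 0.101), quantile normalization (0.43, adjusted p = 0.0898) and with no filter on low values (adjusted p = 0.0784). It was also lost without male ARE-Del 1 (limma, adjusted p = 0.0531), male ARE-Del 2 (0.48, adjusted p = 0.104), male WT 1 (adjusted p = 0.119) or male WT 2 (adjusted p = 0.0582). The averaged call was lost under both scalings, at 0.27 (limma, adjusted p = 0.0918) and 0.28 (adjusted p = 0.0662). Acaca lay between 4.86 and 7.73 RPKM in all 12 libraries, with a change of 0.16 ± 0.13 in females (limma, adjusted p = 0.37) and 0.17 ± 0.13 in males (adjusted p = 0.377). Its 95% intervals were -0.12 to 0.45 in females and -0.11 to 0.46 in males.

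Fatty acid synthase and the citrate lyase did not pass the test. Fasn measured 24.6, 20.2 and 24.2 RPKM in female ARE-Del livers, against 33.7, 33.3 and 13.2 RPKM in female WT livers. In males it measured 19.2, 26.8 and 19.0 RPKM in ARE-Del livers, against 12.6, 18.5 and 25.8 RPKM in WT livers. In both sexes the ARE-Del values lay inside the wider WT range, except for male ARE-Del 2. The change of Fasn was -0.10 ± 0.32 in females (95% interval -0.79 to 0.59, limma, adjusted p = 0.838) and 0.22 ± 0.32 in males (-0.47 to 0.91, adjusted p = 0.659), so an increase or a decrease of moderate size was not detectable. Acly ranged over 22.1 to 34.3 RPKM in female ARE-Del, 14.1 to 30.4 in female WT, 19.6 to 31.7 in male ARE-Del and 15.6 to 26.1 in male WT. Its change was 0.16 ± 0.29 in females (limma, adjusted p = 0.708) and 0.31 ± 0.29 in males (adjusted p = 0.465).

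Scd1, which places the first double bond in stearate and palmitate, was the most abundant of the 10 genes per length. It ranged over 201.5 to 245.9 RPKM in female ARE-Del, 145.0 to 261.0 in female WT, 178.3 to 263.0 in male ARE-Del and 130.4 to 233.5 in male WT. The groups overlapped in both sexes, with changes of 0.19 ± 0.23 in females (limma, adjusted p = 0.584) and 0.24 ± 0.23 in males (adjusted p = 0.5). Elovl6, which lengthens palmitate, measured 6.99, 4.26 and 5.81 RPKM in female ARE-Del livers, against 13.7, 10.6 and 5.94 RPKM in female WT livers. In males it measured 4.41, 5.71 and 6.27 RPKM in ARE-Del livers, against 5.61, 6.78 and 9.29 RPKM in WT livers. Its averaged change was -0.51 ± 0.18 (limma, adjusted p = 0.0366), with -0.68 ± 0.25 in females (adjusted p = 0.0579) and -0.33 ± 0.25 in males (adjusted p = 0.374). The averaged call is narrow: it was lost with no filter on low values (adjusted p = 0.0885) and in 8 of the 12 fits that leave out 1 library (limma, adjusted p = 0.0543 to 0.0881 in those). Female ARE-Del 2, the library lacking Xist, was among the 8 (limma, adjusted p = 0.0825 without it), and the call held in the fits without female ARE-Del 1, female WT 3, male ARE-Del 3 or male WT 1.

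The regulators of the set did not pass the test. Srebf1, the gene of SREBP-1, ranged over 12.6 to 14.2 RPKM in female ARE-Del, 10.02 to 19.8 in female WT, 10.7 to 12.8 in male ARE-Del and 11.0 to 17.3 in male WT. Its change was -0.14 ± 0.21 in females (limma, adjusted p = 0.658) and -0.12 ± 0.21 in males (adjusted p = 0.724). RPKM per gene does not separate its SREBP-1a and SREBP-1c transcripts. Thrsp, or Spot 14, a small protein that thyroid hormone and carbohydrate induce in liver, measured 14.5, 17.4 and 8.62 RPKM in female ARE-Del livers, against 45.5, 31.8 and 9.92 RPKM in female WT livers. In males it measured 26.9, 77.0 and 23.7 RPKM in ARE-Del livers, against 25.5, 30.0 and 60.3 RPKM in WT livers. The groups overlapped in both sexes. The change of Thrsp was -0.87 ± 0.55 in females (limma, adjusted p = 0.253) and 0.03 ± 0.55 in males (adjusted p = 0.976).

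Several of the female values rested on female WT 3. It had the lowest value of its group for 10 of 10 genes, a place it held for 23.0% of all tested genes, and its 10 genes summed to 248 RPKM against 466 and 381 in the other female WT libraries. Without it the female change was -1.48 for Thrsp (limma, adjusted p = 0.0415), -0.99 for Elovl6 (adjusted p = 0.00482) and -0.53 for Fasn (adjusted p = 0.115), and 3 of 10 genes passed, all lower. Mod1 was at -1.67 (limma, adjusted p = 5.27e-04). As female WT 3 was the lowest for every gene, leaving it out had to lower all 10 female changes. The female change was negative for 7 of 10 genes without female WT 3, for 5 as deposited and for 3 without female WT 1. The reason female WT 3 was low was not tested, and the labels give no feeding state or time of day.

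In the same group female WT 1 was the highest for 8 of 10 genes (50.6% of all tested genes). Male WT 3 was the highest of its group for 10 of 10 (38.4%) and male WT 1 the lowest for 9 (57.1%), and male ARE-Del 2 was the highest of its group for 8 (48.9%). The female ARE-Del libraries were more mixed: library 1 was the highest for 6 of 10 (43.5%). Libraries 2 and 3 were each the lowest for 4, beside 58.2% and 18.7% of all tested genes. The 10 genes varied more within groups than most genes: the SD within groups on the log2 scale was 0.82 for Thrsp, 0.58 for Lpin1, 0.47 for Fasn, 0.42 for Acly, 0.37 for Elovl6, 0.34 for Scd1, 0.33 for Mod1, 0.30 for Srebf1, 0.24 for Acacb and 0.18 for Acaca. The median tested gene had 0.099, and the median of 3007 genes with a mean of at least 5 RPKM had 0.11. For Thrsp 0.151% of tested genes had a larger SD, for Fasn 0.946% and for Acaca 12.4%. The members' median SE of a genotype difference was 0.243, against 0.0813 for all tested genes, so a change of a given size was harder to detect in these genes.

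**Figure D3:**
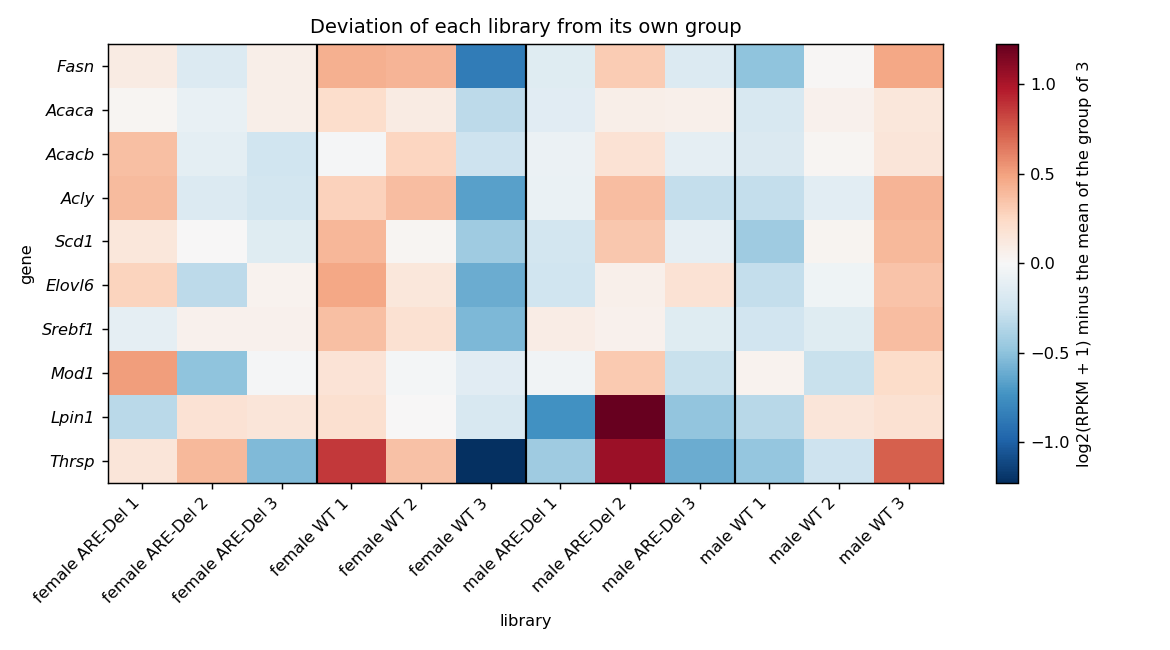
Deviation of each library from the mean of its own group of 3, as log2(RPKM + 1), for the 10 genes (rows) in 12 libraries (columns), with red above and blue below the group mean. Female WT 3 is below its group mean and male WT 3 above it in all 10 rows, and the darkest cells are those of Thrsp and Lpin1.

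Over the 12 libraries, values of Fasn, Acaca, Acly and Scd1 ran alongside each other. Pearson's r is given as a description over libraries that share the group differences. It was 0.88 between Fasn and Acly, and 0.84 between Fasn and each of Acaca, Scd1 and Srebf1. With Fasn it was lower for Elovl6 (0.66), Acacb (0.60), Thrsp (0.45) and Lpin1 (0.40), and 0.05 for Mod1. Between Acacb and Elovl6 it was 0.03. Among the tested genes most like Fasn were Acat2 (r = 0.91) and Sc5d (0.89), and among those most like Acly were Acat2 (0.92) and Fdps (0.90), all genes of cholesterol synthesis. Spag9 (0.90) and Rnf6 (0.88) were among those most like Scd1. Acaca was most like LOC207933 (0.94), Fdft1 (0.92) and Dag1 (0.91), Acacb most like Mthfd1 (0.95), Acss2 (0.94) and Wdr33 (0.94), and Srebf1 most like Mid1ip1 (0.87), Carkl (0.85) and Fasn (0.84). Mod1 stood with other genes: Pcsk6 (0.98), 4931406C07Rik (0.98) and 2700089E24Rik (0.97). Lpin1 was most like an entry that joins Pfkfb2 with a pseudogene (0.95), Lpin2 (0.93) and Usp1 (0.93), Thrsp most like Tmem14c (0.94), Gpam (0.91) and Epb4.1l5 (0.91), and Elovl6 most like Dgcr6 (0.92), Zadh2 (0.91) and Phb2 (0.89).

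Whether the genotype acted alike in the sexes was tested as the female change minus the male change. No gene of the 10 passed, where 0.568% of tested genes did (limma, adjusted p), and 1 of 10, Lpin1, had an unadjusted p below 0.05. Its difference was -1.51 ± 0.55 (limma, adjusted p = 0.28), and that of Mod1 was -0.69 ± 0.32 (adjusted p = 0.433) and that of Thrsp -0.90 ± 0.77 (adjusted p = 0.773). The sign was negative for 10 of 10 genes as deposited, for 7 of 10 after quantile normalization and for 6 to 10 of 10 leaving out 1 library (6 without male ARE-Del 2), where 49.9% of all tested genes had a negative sign. Several of the 10 genes ran alongside each other over the libraries, so their signs are not independent and the count is a description. The calls for Lpin1 and Acacb in males alone are therefore not shown to differ from females.

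Between the sexes, 1 of 10 genes passed in ARE-Del livers, where 22.4% of tested genes did. This was Mod1, lower in females (-0.73 ± 0.22, limma, adjusted p = 0.0351), and the call was lost without female ARE-Del 2, the library lacking Xist (-0.49, adjusted p = 0.117), and without female ARE-Del 3 (adjusted p = 0.094), male ARE-Del 1 (adjusted p = 0.0678) or male ARE-Del 2 (adjusted p = 0.141). Thrsp was 8.62 to 17.4 RPKM in female ARE-Del and 23.7 to 77.0 RPKM in male ARE-Del livers, with a difference of -1.43 ± 0.55 that did not pass (limma, adjusted p = 0.082). Lpin1 differed by -0.84 ± 0.39 (limma, adjusted p = 0.146). In WT livers 0 of 10 passed by limma beside 9.76% of all tested genes, and 1, Acacb, had an unadjusted p below 0.05. Acacb differed by 0.43 ± 0.17 (limma, adjusted p = 0.127), Fasn by 0.42 ± 0.32 (adjusted p = 0.442) and Lpin1 by 0.67 ± 0.39 (adjusted p = 0.307).

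Complete separation of 3 libraries from 3 was common in these data and is given as a description. It held for 1 of 10 genes between female ARE-Del and female WT (Mod1, lower), beside 43.5% of all tested genes. It held for 3 of 10 between male ARE-Del and male WT (Mod1 lower, Acacb and Lpin1 higher), beside 41.6%. Between female and male ARE-Del livers it held for Thrsp alone (lower in females), beside 39.8%, and between female and male WT livers for Acacb and Lpin1 (2 of 10, both higher in females), beside 28.4%.

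Genes around the pathway were then read from lists of related function, each with its count in the average over the sexes, where 42.5% of all tested genes passed. These counts lean on the scaling, and each is followed by those after both rescalings. Among genes that supply acetyl-CoA and NADPH, 4 of 14 rose and 2 fell, with a median change of 0.04 (3 rose and 5 fell with median-of-ratios scaling, 4 and 5 with quantile normalization). The lower ones were Idh1, cytosolic isocitrate dehydrogenase, and Brp44, a subunit of the mitochondrial pyruvate carrier, both named after their values were seen, and no gene of the list was called lower without female ARE-Del 2. G6pdx, Pgd and Me2 rose, whereas Mod1 fell. G6pdx, the first enzyme of the oxidative pentose phosphate pathway, averaged 4.53 ± 0.310 RPKM in female ARE-Del and 1.65 ± 0.576 in female WT livers, and 3.28 ± 1.46 in male ARE-Del and 1.22 ± 0.311 in male WT livers (SD, n = 3 each). It rose by 1.08 ± 0.21 in females (limma, adjusted p = 0.00162) and 0.90 ± 0.21 in males (adjusted p = 0.00887). Pgd, the next NADPH-yielding step, rose by 0.47 ± 0.08 averaged (limma, adjusted p = 4e-04). Me2, a mitochondrial malic enzyme, rose by 0.39 ± 0.06 (limma, adjusted p = 2.17e-04) at levels of 0.832 to 1.01 RPKM in female ARE-Del and 0.222 to 0.539 RPKM in female WT, where adding 1 to RPKM understates the change. Acss2, which makes acetyl-CoA from acetate, rose by 0.51 ± 0.15 (limma, adjusted p = 0.0154), a call lost under median-of-ratios scaling (adjusted p = 0.0737). Idh1 changed by -0.17 ± 0.06 (limma, adjusted p = 0.0425), with 44.02 to 45.3 RPKM in female ARE-Del against 49.6 to 58.8 RPKM in female WT. The rise of G6pdx held under both scalings, at 0.89 and 0.84 averaged (limma, adjusted p = 3.14e-04 and 4.51e-04).

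**Figure D4:**
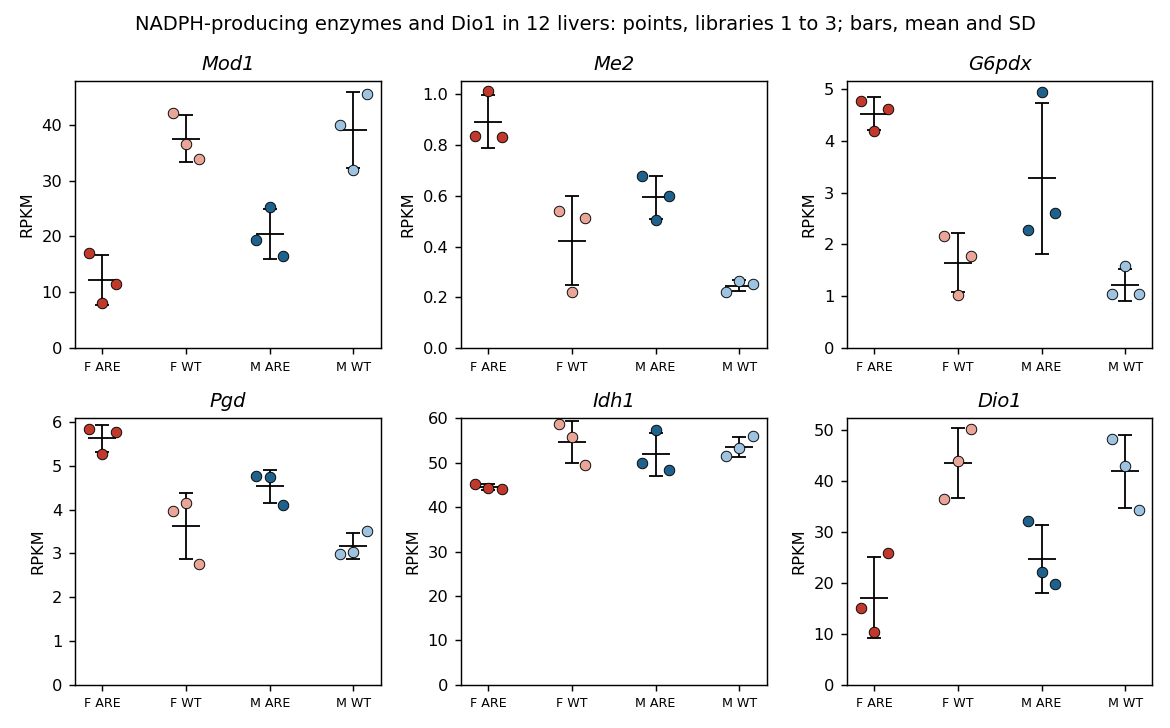
RPKM of Mod1, the malic enzyme Me2, the NADPH-yielding G6pdx, Pgd and Idh1, and the deiodinase Dio1 in 12 libraries by group (points, libraries 1 to 3, bars, mean and SD). Mod1 is lower in ARE-Del than in WT of the same sex, as is mean Dio1, while G6pdx, Pgd and Me2 are higher.

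Thyroid hormone genes were listed because Mod1 and Thrsp respond to that hormone. Of 9 tested, 2 rose and 1 fell (1 and 3 with median-of-ratios scaling, 1 and 6 with quantile normalization). The one that fell as deposited was Dio1, the hepatic deiodinase and itself a thyroid hormone target, at 10.3 to 25.8 RPKM in female ARE-Del against 36.5 to 50.1 in female WT, and 19.7 to 32.1 in male ARE-Del against 34.2 to 48.3 in male WT. The groups did not overlap within either sex. Its change was -1.38 ± 0.27 in females (limma, adjusted p = 0.0019), -0.76 ± 0.27 in males (adjusted p = 0.0651) and -1.07 ± 0.19 averaged (adjusted p = 7.57e-04), or -0.92 averaged without female ARE-Del 2 (adjusted p = 0.00105). Thrsp did not pass averaged over the sexes (-0.42 ± 0.39, limma, adjusted p = 0.404). Klf9 of this list, named after its values were seen, did not pass either (-0.04 ± 0.11, limma, adjusted p = 0.759). A part of thyroid hormone in these changes was not tested. Med1, a coactivator subunit, rose by 0.31 ± 0.06 (limma, adjusted p = 8.76e-04), and the transporter Slc16a10 rose by 0.23 ± 0.05 (adjusted p = 0.00307), though Slc16a10 did not pass under either scaling. By sex, Slc16a10 changed by 0.42 ± 0.07 in males (limma, adjusted p = 0.00129) and 0.04 ± 0.07 in females (adjusted p = 0.716). The difference between the sexes did not pass (limma, adjusted p = 0.116).

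Of 15 lipogenic regulators, 7 rose and 1 fell (4 and 3 with median-of-ratios scaling, 4 and 5 with quantile normalization). Srebf2, the paralogue that drives cholesterol synthesis, rose by 0.42 ± 0.09 (limma, adjusted p = 0.00263), Scap, the escort of the SREBPs, by 0.38 ± 0.07 (adjusted p = 7.72e-04) and Nr1h2, the oxysterol receptor LXR beta, by 0.35 ± 0.05 (adjusted p = 2.65e-04). Insig2, which retains the SREBP complex in the endoplasmic reticulum, fell by 0.36 on the log2 scale (limma, adjusted p = 0.0273), and did not pass without female ARE-Del 2 (adjusted p = 0.0545). Of 18 insulin and AMPK signalling genes, 5 rose and the other 13 did not pass (3 rose and 5 fell with median-of-ratios scaling, 3 and 9 with quantile normalization). Irs2, an insulin receptor substrate, rose by 0.81 ± 0.18 (limma, adjusted p = 0.00283), Trib3, an inhibitor of AKT, by 0.46 ± 0.13 (adjusted p = 0.0111, and 0.0514 and 0.0829 under the scalings), Frap1, the older symbol of Mtor, by 0.42 ± 0.06 (adjusted p = 1.24e-04) and Akt1 by 0.31 ± 0.07 (adjusted p = 0.0025).

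Of 13 genes of glucose and fructose use, 2 rose and 3 fell (0 and 6 with median-of-ratios scaling, 0 and 5 with quantile normalization). Pklr, the liver pyruvate kinase and a ChREBP target, changed by -0.61 ± 0.15 (limma, adjusted p = 0.00531), with 13.7 to 24.4 RPKM in female ARE-Del against 27.0 to 42.2 in female WT, and 17.98 to 25.7 in male ARE-Del against 28.3 to 34.9 in male WT. Khk, which phosphorylates fructose, changed by -0.37 ± 0.09 (limma, adjusted p = 0.00503) and the glucose transporter Slc2a2 by -0.31 ± 0.11 (adjusted p = 0.0351), while Pfkfb1 rose by 0.30 ± 0.10 (adjusted p = 0.0328). By sex, Pfkfb1 changed by 0.60 ± 0.14 in males (limma, adjusted p = 0.0111) and -0.01 ± 0.14 in females (adjusted p = 0.971). The difference between the sexes did not pass (limma, adjusted p = 0.225). Neither Slc2a2 nor Pfkfb1 passed without female ARE-Del 2 (limma, adjusted p = 0.0726 and 0.0739), and Pfkfb1 passed under neither scaling. Among 15 other elongases and desaturases, 2 rose and 2 fell (1 and 6 with median-of-ratios scaling, 1 and 5 with quantile normalization). Scd2, a paralogue of Scd1 that is minor in adult liver, rose by 0.90 ± 0.08 (limma, adjusted p = 3.23e-06), at 1.95 ± 0.467 RPKM in female ARE-Del and 0.448 ± 0.152 in female WT, and 1.14 ± 0.271 in male ARE-Del and 0.235 ± 0.0293 in male WT (SD, n = 3 each). Elovl1, an elongase of very long chains, rose by 0.26 ± 0.06 (limma, adjusted p = 0.00326) but passed under neither scaling. Cyb5, the electron donor of the desaturases, and Ptpla, a dehydratase of the elongation cycle, changed by -0.32 and -0.28 (limma, adjusted p = 8.09e-04 and 2.29e-04).

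Of 14 genes of fatty acid activation and triglyceride synthesis, 5 rose and 2 fell (2 and 6 with median-of-ratios scaling, 2 and 4 with quantile normalization). Acsl4, an acyl-CoA synthetase that prefers arachidonate, rose by 0.56 ± 0.09 (limma, adjusted p = 4.34e-04) and Agpat1 by 0.39 ± 0.06 (adjusted p = 2.78e-04), while Acsl1, the main hepatic acyl-CoA synthetase, and Agpat2 fell by 0.35 and 0.26 on the log2 scale (adjusted p = 0.0213 and 0.0105). Of 13 lipid droplet genes, 2 rose and 4 fell (2 and 7 with median-of-ratios scaling, 1 and 7 with quantile normalization). Their median change of -0.19 was the lowest of these lists, and it was -0.26 and -0.32 under the scalings. The entry 1110028A07Rik, a synonym of Fitm1, changed by -1.71 ± 0.13 (limma, adjusted p = 6.77e-07), G0s2, the inhibitor of adipose triglyceride lipase, by -1.04 ± 0.22 (adjusted p = 0.00212) and the monoglyceride lipase Mgll by -0.67 ± 0.11 (adjusted p = 4.52e-04). Pnpla2, adipose triglyceride lipase itself, rose by 0.72 ± 0.07 (limma, adjusted p = 7.99e-06). Adipocyte markers bear on fat tissue in the sample, and 3 of the 8 in the table were tested (2 higher, 1 lower). Fabp4 rose by 0.88 (limma, adjusted p = 2.74e-04) and Lipe by 0.37 (adjusted p = 0.00123), while Pparg changed by -0.57 (adjusted p = 3.14e-04). Their highest values in any library were 5.94, 2.43 and 5.79 RPKM. The untested ones were lower: Cidec was at most 0.784 RPKM, Cfd 0.420 and Adipoq 0.282. Retn was at most 0.025 RPKM and Plin, the older symbol of Plin1, at most 0.019 RPKM. Leukocyte markers rose in the same livers under both scalings too (7 of 7).

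**Figure D5:**
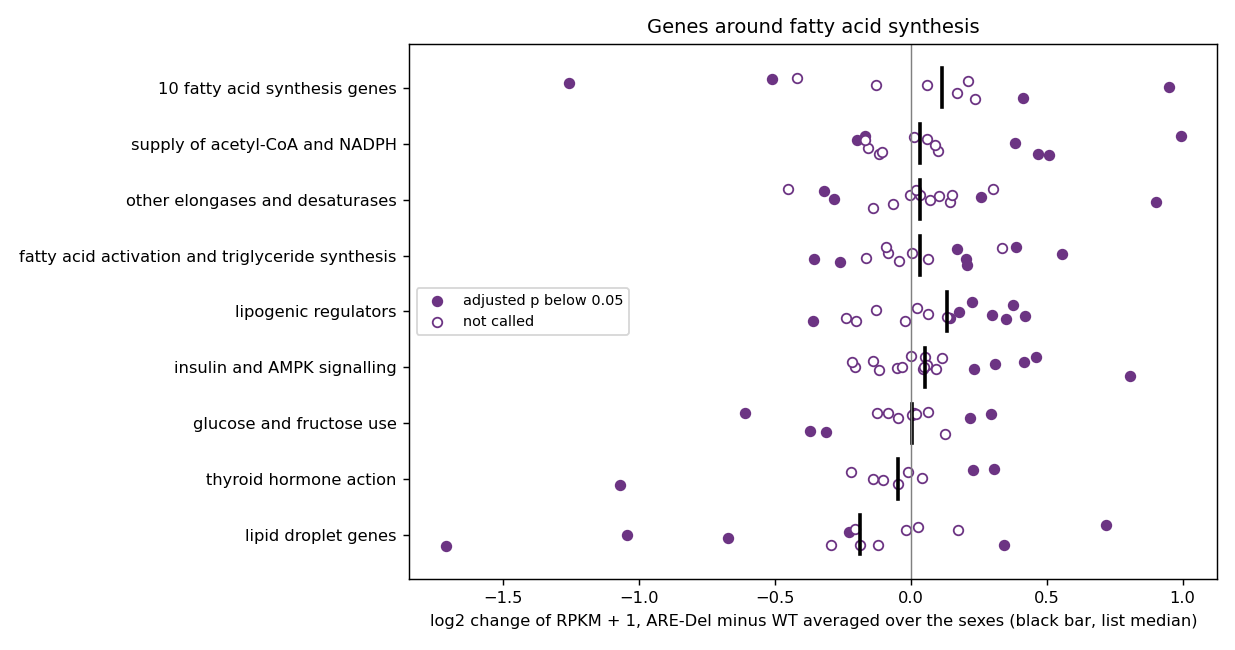
Change of each tested gene, ARE-Del minus WT averaged over the sexes, on the log2(RPKM + 1) scale for the 10 fatty acid synthesis genes and 8 lists around them (filled, adjusted p below 0.05, open, not called, black bar, list median). The 10 genes spread from -1.26 for Mod1 to 0.95 for Lpin1, and the lipid droplet list has the lowest median, -0.19.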

How the data were processed

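RNA from 12 livers was sequenced after Illumina TruSeq preparation, per the labels' protocols. RPKM values were made by the authors and deposited as 1 table. Per the submitters' processing notes, the tools were Trimmomatic 0.30, TopHat2 2.0.8, Partek and GenomeStudio 6.6, with the mm9 assembly. The counting method, strand included, is not given in the sources used here. Read totals are unknown. Relative depth, estimated from steps in values below 0.2 RPKM, was 0.914 to 1.46 times that of female WT 1.

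Genes with at least 0.5 RPKM in at least 3 libraries were tested. A limma model (3.58.1, R 4.3.3) of log2(RPKM + 1) had 4 group means over 12 libraries and a variance trend, with Benjamini-Hochberg adjustment within each of 6 comparisons. The pseudocount of 1 shrinks changes of low genes. The fit was tested on simulated data with noise drawn independently for each gene and library. That test does not cover libraries in which genes deviate together, as several members did here. Replicates are separate samples per the labels, which do not say that each is 1 animal, so p-values measure the spread between these samples. The 10 genes and 11 lists (148 of 157 entries found, 18 by older symbols) were chosen with earlier results of these data known. From each list up to 4 genes are named, called ones with the largest averaged change first, then the most abundant. For each member the tested genes with the highest Pearson's r are named. Some genes that these rules name are not reported here. Promoter sequences are RefSeq GRCm38.p6, and no coordinates of the authors' build were used. Figures were drawn with Python 3.11.15, numpy 2.4.6, pandas 2.3.3 and matplotlib 3.10.9.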

Additional observations from a re-analysis of the deposited data

How the results depend on the processing

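Every member change in the 3 genotype comparisons, and 3 members in each of the others, was recomputed with a pseudocount of 0.1, no filter, median-of-ratios scaling, quantile normalization, a replicate block, the compared groups alone and leaving out each library. For these, 634 values kept direction and side of the threshold, 27 lost a call, 10 gained one and 18 changed sign. The cause was not tested.

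Members called in females were 2 after median-of-ratios scaling and 2 after quantile normalization (Elovl6 added, which also passed without female ARE-Del 1, limma, adjusted p = 0.0495), and 1 to 3 leaving out 1 library. Between sexes in ARE-Del they were 0 with no filter, 0 with the compared groups alone and 0 to 2 leaving out 1 library. Between sexes in WT they were 1 with the compared groups alone (Lpin1) and 0 to 1 leaving out 1 library. After these scalings the sign turned for Thrsp in males (-0.13 and -0.10) and Fasn averaged (-0.093 and -0.027), and neither was called. The other turns of sign, 14 values, came on leaving out 1 library, and some of those values were larger. Leaving out 1 library gave ranges, in females, of -0.17 to 0.35 for Acly, -0.53 to 0.12 for Fasn, -0.41 to 0.045 for Srebf1 and -0.030 to 0.39 for Scd1. In males they were -0.025 to 0.46 for Fasn, -0.49 to 0.39 for Thrsp and -0.24 to 0.071 for Srebf1, and averaged -0.15 to 0.18 for Fasn. Mod1 in females was called throughout (-1.85 to -1.35), as was Lpin1 in males (1.09 to 2.08). Calls gained between the sexes were Thrsp in ARE-Del without female WT 3 (limma, adjusted p = 0.0366), Lpin1 in ARE-Del without male ARE-Del 1 (0.0462), and in WT Fasn without female WT 3 (0.0491) and Lpin1 without male ARE-Del 2 (0.0327). The same scalings, and leaving out female ARE-Del 2, were applied to the lists after seeing the data.

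Over all tested genes, interaction calls were 60 as deposited and 0 to 106 under these alternatives (0 without male WT 1, 106 after quantile normalization). Calls in males were 2272 and, without male WT 1, 1259. Calls between sexes in ARE-Del were 2370, and 1367 without female ARE-Del 3. Those in WT were 1031, and 525 without male WT 1.

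Same-numbered libraries did not deviate together: their correlations ran from -0.291 to 0.245, with 5 of 18 above 0.1. With the replicate block 1 member was called in females, 3 in males and 3 averaged, where Elovl6 was lost (limma, adjusted p = 0.0555). Read totals are unknown, and 3 libraries a group limit precision.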
